A study of Mus musculus with 5 samples.

Results

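Oligodendrocyte (OL) precursor cells (OPCs) that leave the cycling precursor state pass through a short stage, the committed precursor (COP), before they become newly formed (NFOL), myelin-forming (MFOL) and mature oligodendrocytes (MOL). Described here are 9 genes of this transition, of the 11733 genes measured: Gpr17, Bmp4, Neu4, Tcf7l2, Itpr2, Enpp6, Tmem2, Rassf10 and Mycl. They were picked by name for their levels in the cells labelled COP/NFOL, so that their height in this label is how they were chosen and is given as a description, with no test. All 9 are rows of the expression matrix, and none was lost to a filter.

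The data are single-cell RNA sequencing of the corpus callosum of mice that carry Emx1::Cre and the reporter Sox10::Cre-LoxP-GFP-STOP-TdTom, on a mixed CBA and C57BL/6 background, at postnatal day 60. The paper states in general that both sexes were used, and does not give the sex of the mice of these libraries. In these mice Cre under Emx1 acts in the dorsal forebrain, so that OL lineage cells of dorsal origin carry TdTom and those of ventral origin keep GFP, and the reporter itself depends on Sox10. Tissue of 2 mice was pooled and sorted into 1 TdTom+ library (1901 cells, 7129294 unique molecular identifiers, UMIs) and 1 GFP+ library (952 cells, 3584940 UMIs). There is no replicate library, the 3 spinal cord samples of the series enter no comparison, and a difference between the libraries cannot be told apart from one of sort or preparation.

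Cells carry 1 of 12 labels deposited by the authors, and COP/NFOL is the smallest, with 19 cells (11 TdTom+ and 8 GFP+). Levels are UMIs of a gene summed over cells and scaled to 1000000 UMIs (CPM), with exact Poisson intervals at 95%. Shares of cells with at least 1 UMI have exact Clopper-Pearson intervals at 95%. All intervals cover counting error only, and cells of 1 library are not replicates. The 10x Genomics 3′ method counts transcript ends, so a CPM is compared between cells for 1 gene and not between genes. Labels came from clustering and label transfer that could use these genes.

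The proteins act at different places in the cell. GPR17 is a G protein-coupled receptor that appears briefly in differentiating precursors and restrains their maturation, and BMP4 is a secreted ligand of the bone morphogenetic protein family. TCF7L2 is the main TCF/LEF transcription factor of this lineage, a partner of beta-catenin in Wnt signalling, and MYCL belongs to the MYC family, which binds E-boxes. RASSF10 is a Ras association domain protein, and ITPR2 is an inositol trisphosphate receptor that releases calcium from the endoplasmic reticulum. NEU4 is a sialidase, ENPP6 is a choline phosphodiesterase used as a mark of newly forming oligodendrocytes, and TMEM2 is a hyaluronidase of the cell surface.

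Because 2 of the 9 proteins bind DNA, the letters ATCAAAG (TCF/LEF) and CACGTG (E-box) were looked for on both strands of the 250 bases before each start in RefSeq, where 6 of the 9 genes had 7 promoters between them. ATCAAAG was in 0 of the 7 and in 3.21% of all 32851 promoters. CACGTG was in 1 of the 7, that of Bmp4, and in 6.02% of all. A match of letters is no site, and its absence says nothing of the factor. The windows of 3 genes of different patterns over the labels are shown, Bmp4 (found in few cells after COP/NFOL), Tcf7l2 (counted in all later labels) and Enpp6 (not found in OPC), 5′ to 3′ on the gene's strand, with CACGTG in capitals (GRCm38, the same as mm10). They lie at chr14:46390670-46390919 on the minus strand, at chr19:55741560-55741809 on the plus strand and at chr8:46986637-46986886 on the plus strand.
Bmp4: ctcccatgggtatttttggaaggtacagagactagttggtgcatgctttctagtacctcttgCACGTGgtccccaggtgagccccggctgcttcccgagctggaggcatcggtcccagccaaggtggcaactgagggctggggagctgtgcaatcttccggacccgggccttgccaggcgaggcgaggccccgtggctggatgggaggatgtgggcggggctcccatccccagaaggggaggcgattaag
Tcf7l2: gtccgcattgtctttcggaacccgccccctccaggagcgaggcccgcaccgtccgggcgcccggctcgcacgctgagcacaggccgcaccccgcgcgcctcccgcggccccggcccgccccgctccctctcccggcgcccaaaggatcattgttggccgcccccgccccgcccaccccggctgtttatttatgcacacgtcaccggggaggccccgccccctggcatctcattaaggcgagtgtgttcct
Enpp6: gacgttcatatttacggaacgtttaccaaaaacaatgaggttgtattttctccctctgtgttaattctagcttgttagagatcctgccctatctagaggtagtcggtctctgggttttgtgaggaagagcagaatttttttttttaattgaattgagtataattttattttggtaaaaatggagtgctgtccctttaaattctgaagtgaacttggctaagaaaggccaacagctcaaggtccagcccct
The G and C content of these windows was 63.2% for Bmp4, 72.8% for Tcf7l2 and 38.4% for Enpp6. The E-box letters of Bmp4 begin 188 bases before the start.

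The label was first described with genes other than the 9. The clustering and label transfer could use these genes too, so they are no independent check of the label. COP/NFOL cells held 7.21 CPM of Pdgfra, the receptor of OPCs, against 1898 CPM in OPC, while the receptor phosphatase Ptprz1 was at 360 CPM against 2893 CPM. Fyn, a kinase that acts in process growth, was at 2955 CPM in COP/NFOL, 241 CPM in OPC and 50.1 CPM in MFOL1, and Bcas1 was at 1024, 162 and 221 CPM. Mal, a membrane protein of compact myelin, was at 57.7 CPM against 7282 CPM in MFOL1. A panel of 26 myelin genes took a median of 0.586% of a cell's UMIs in OPC, 4.33% in COP/NFOL and 9.40% in MFOL1, and a panel of 26 precursor genes took 2.47%, 0.488% and 0.0354%. Other markers of OPC were closer, with Lhfpl3 at 346 against 1209 CPM and the proteoglycan Vcan at 584 against 1130 CPM, and Sox6, a factor of precursors and COPs, was at 411 against 429 CPM. Vcan and Sox6, the markers listed for COP beside the 9 genes, were thus highest in OPC, and the myelin share of the 19 cells lay between those of OPC and MFOL1. Microglial (6 genes measured), endothelial (5), ependymal (1) and pericyte (1) markers had 0 UMIs in them, astrocyte markers 9 UMIs over 7 genes, 5 of which were at 0, and neuronal markers 6 UMIs over 5 genes.

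Depth differed with the label. COP/NFOL cells had a median of 8215 UMIs (2139 to 11550), OPC 2895 UMIs and the cells of all other labels together 3327 UMIs (1577 to 12856). Of the 33 cells with more than 3000 genes in the matrix, the upper limit that the methods state, 9 were COP/NFOL cells. CPM is relative to depth, but shares of cells with a UMI are not, so these are also given after cells were randomly thinned to 2400 UMIs each, leaving 18 COP/NFOL and 71 OPC cells deep enough. The part of depth or of doublets in the levels was not tested.

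With both libraries pooled, 8 of the 9 genes had their highest CPM of the 12 labels in COP/NFOL, as did 40.2% of the 3847 genes with at least 50 CPM there. All 9 were at 4-fold or more over all other cells, as were 12.6% of the same genes. The exception to the first count was Neu4, which was highest in OPC. Set against OPC, 8 of the 9 were 2-fold or more higher in COP/NFOL (12.5% of 5147 genes), and set against MFOL1 all 9 were (27.8% of 4318 genes). Higher than both were 8 of the 9 (9.36% of 3847 genes). Against OPC the genes differed by library (log2 ratio, pseudocount 10 CPM). In TdTom+ alone Gpr17 (0.76) and Neu4 (-1.03) did not reach 2-fold, and in GFP+ alone Neu4 (0.51) and Tmem2 (0 UMIs in COP/NFOL) did not. The rule used these contrasts, so nothing is read from the counts. Against the next highest label in place of all other cells, 5 of the 9 reached 4-fold (2.76% of the 3847 genes).

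**Figure D1:**
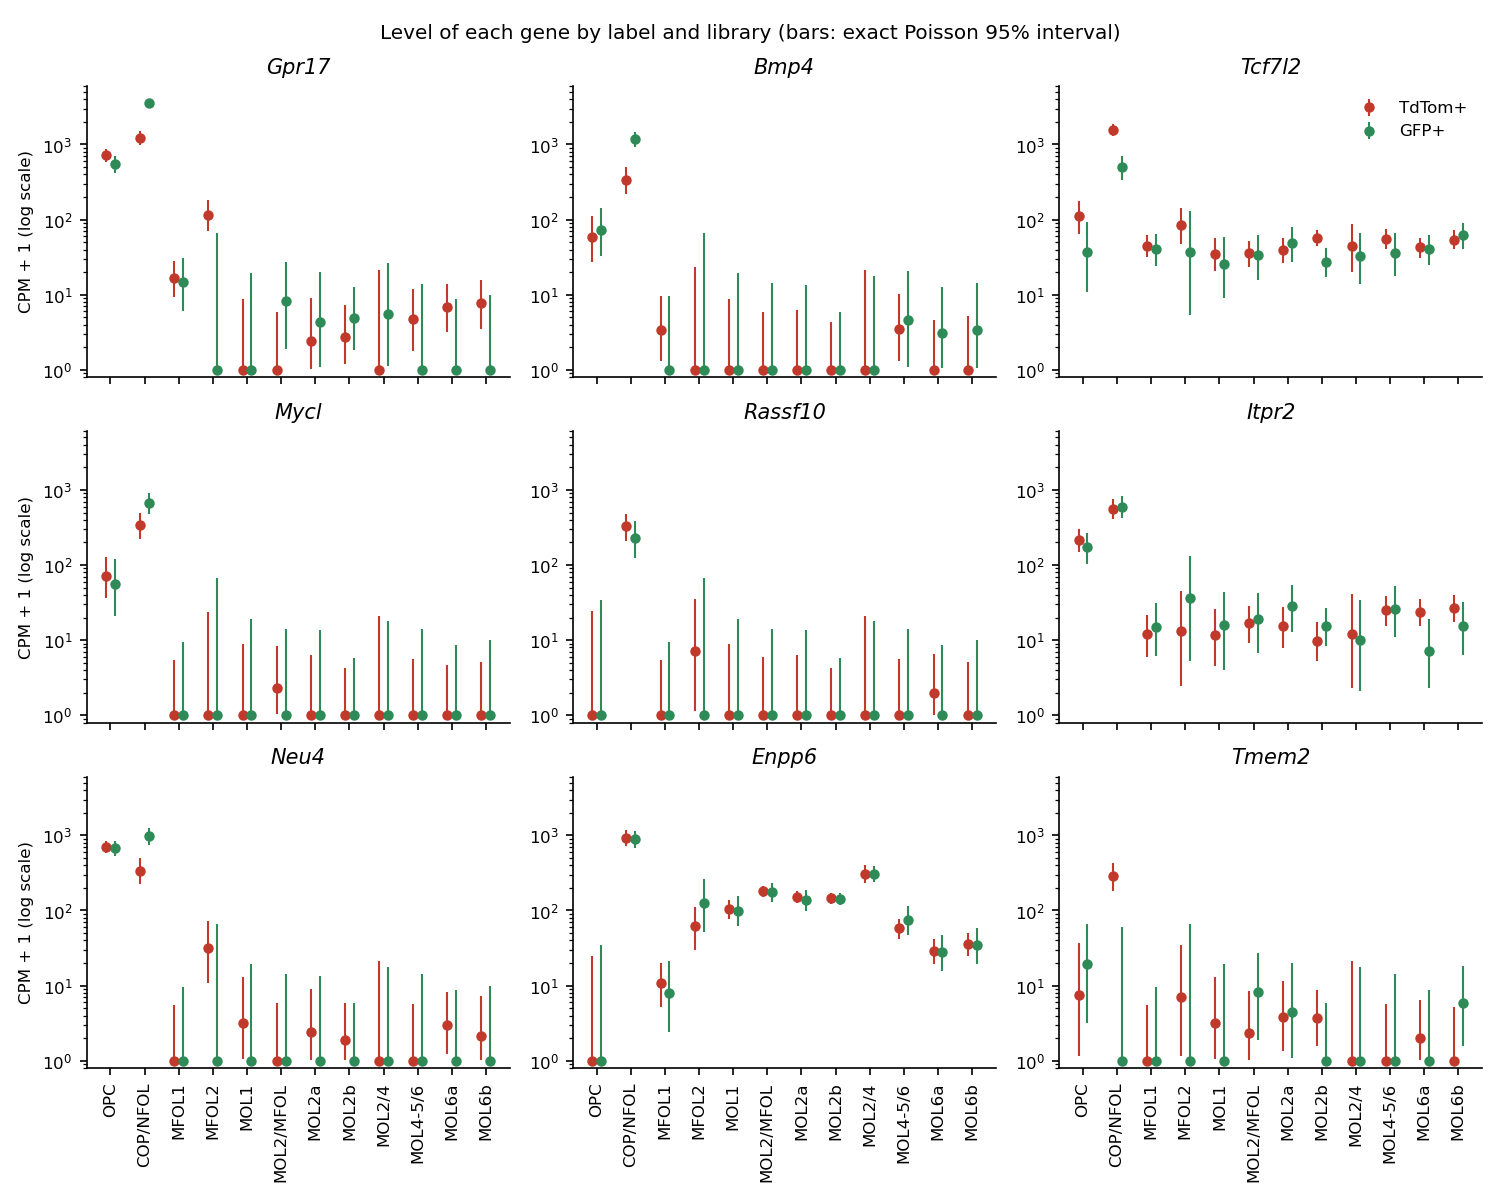
Level of each of the 9 genes (CPM + 1, log scale) in the 12 labels, with TdTom+ in red and GFP+ in green; points at 1 are labels with 0 UMIs and bars are exact Poisson 95% intervals. COP/NFOL stands highest in most panels, Neu4 is about as high in OPC, Tmem2 is absent from GFP+ COP/NFOL cells, and Enpp6 and Tcf7l2 remain above 20 CPM in the mature labels.

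Gpr17, the receptor (mm10 chr18:31942997-31949636, minus strand, positions here and below from GENCODE), was the only one of the 9 with a UMI in all 19 COP/NFOL cells. It held 10 to 46 UMIs per cell in the 8 GFP+ cells (median 29) and 1 to 18 in the 11 TdTom+ cells (median 6). Its level was 2256 CPM (2013 to 2520) in COP/NFOL, 644 CPM (551 to 748) in OPC, 86.1 CPM (51.9 to 135) in MFOL2 and 15.1 CPM (9.10 to 23.6) in MFOL1, and none of these intervals overlapped its neighbour. In OPC, 57 of 83 cells (68.7%, 57.6% to 78.4%) had a UMI, and after thinning 64.8% against 77.8% in COP/NFOL. The level in MFOL2 came from 3 of 66 cells with 9, 6 and 4 UMIs, all TdTom+. In the 2411 cells of the 8 MOL labels, 25 cells had 1 UMI each, or 2.83 CPM, at a median of 3308 UMIs per cell. With the libraries pooled, Gpr17 was thus 3.50-fold higher (2.90 to 4.25) in COP/NFOL than in OPC and 149-fold higher (94.0 to 251) than in MFOL1. The log2 ratio over OPC (pseudocount 10 CPM) differed by library, at 0.76 (0.36 to 1.18) in TdTom+ and 2.68 (2.29 to 3.14) in GFP+.

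Bmp4, the ligand (chr14:46383520-46390669, minus strand), had 98 of its 122 UMIs in COP/NFOL cells, and another 17 in OPC. It stood at 706 CPM (573 to 861) in COP/NFOL, 64.0 CPM (37.3 to 103) in OPC and 1.59 CPM (0.193 to 5.75) in MFOL1, and had 0 UMIs in the 66 MFOL2 cells. By cell, 13 of 19 COP/NFOL cells (68.4%, 43.4% to 87.4%) and 15 of 83 OPC cells (18.1%, 10.5% to 28.0%) held a UMI, and after thinning 55.6% and 12.7%. In the mature labels there were 5 UMIs in 2411 cells.

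Of the transcription factors, Tcf7l2 (chr19:55741820-55933654, plus strand) was at 1081 CPM (915 to 1269) in COP/NFOL and at 79.1 CPM (49.0 to 121) in OPC, a fold of 13.7 (8.63 to 22.7). It was also counted in later labels, at no more than 4 UMIs per cell, and the part of free RNA in this was not tested. MFOL1 was at 42.2 CPM (31.6 to 55.2), MFOL2 at 72.5 CPM, and the 8 MOL labels lay between 31.4 and 55.5 CPM, with 337 of 2411 cells (13.98%, 12.6% to 15.4%) holding a UMI. OPC, MFOL and MOL neighbours in this order had overlapping intervals. After thinning, 61.1% of COP/NFOL cells, 18.3% of OPC and 9.84% of mature cells had a UMI. Mycl (chr4:122995652-123002485, plus strand) was at 483 CPM (374 to 613) in COP/NFOL and 64.0 CPM (37.3 to 103) in OPC, with 0 UMIs in the 340 MFOL1 and MFOL2 cells and 1 UMI in all mature cells. After thinning, 72.2% of COP/NFOL and 18.3% of OPC cells held Mycl. Its level is 202-fold above that of MFOL1 with 3 counts taken as the limit that a count of 0 allows, and the interval of the log2 ratio starts at 7.32.

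Rassf10 (chr7:112953962-112957457, plus strand) was the most concentrated of the 9, with 39 of its 41 UMIs in COP/NFOL, where 13 of 19 cells held it (68.4%, 43.4% to 87.4%), and 6 of 18 after thinning (33.3%, 13.3% to 59.0%). It was at 281 CPM (200 to 384) there and had 0 UMIs in 83 OPC and 274 MFOL1 cells. On the same limit this is 24.9-fold above OPC and 118-fold above MFOL1, and the intervals of these log2 ratios start at 4.27 and 6.51. The other 2 UMIs were in 1 MFOL2 and 1 MOL6a cell. Itpr2, the calcium channel (chr6:146108299-146502223, minus strand), was at 577 CPM (457 to 718) in COP/NFOL and 196 CPM (146 to 257) in OPC. The fold of 2.94 (2.05 to 4.26) was the lowest among the genes higher in COP/NFOL with the libraries pooled, and its interval overlapped that of Gpr17. In TdTom+ alone Gpr17 was lower, at a log2 ratio (pseudocount 10 CPM) of 0.76 against 1.35. Itpr2 was found in 14 of 19 COP/NFOL and 37 of 83 OPC cells, and after thinning in 66.7% and 36.6%. In MFOL1 it was at 11.9 CPM, and in the MOL labels between 9.98 and 24.2 CPM with overlapping neighbours.

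Among the enzymes, Neu4 (chr1:94020451-94028334, plus strand) was already high in OPC, at 693 CPM (597 to 801), against 620 CPM (496 to 766) in COP/NFOL, a fold of 0.894 (0.684 to 1.16). In OPC 62 of 83 cells (74.7%) and in COP/NFOL 14 of 19 (73.7%) held a UMI, and after thinning 66.2% and 61.1%. With the libraries pooled these labels did not differ beyond counting error. In TdTom+ alone COP/NFOL was lower, with a log2 ratio (pseudocount 10 CPM) of -1.03 (-1.73 to -0.43), and in GFP+ alone the ratio was 0.51, with an interval only just above 0 (0.0002 to 1.02). It then had 0 UMIs in 274 MFOL1 cells, and all 5 UMIs of MFOL2 were in a single cell. In the mature labels 6 of 2411 cells held 1 UMI each. Taking the mean of each cell's CPM instead of summed UMIs put Neu4 highest in COP/NFOL.

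Enpp6 (chr8:46986887-47096762, plus strand) was not found in OPC. It had 0 UMIs in 83 OPC cells and 126 UMIs in 16 of 19 COP/NFOL cells, at 908 CPM (757 to 1081). This is 80.4-fold above the 3-count limit in OPC, and the interval of the log2 ratio starts at 6.01. MFOL1 was low, at 8.75 CPM (4.37 to 15.7), but MFOL2 was at 77.1 CPM (44.9 to 123), with a UMI in 14 of 66 cells, and the mature labels held 941 of its 1095 UMIs. It was at 307 CPM (255 to 366) in MOL2/4, where 67 of 123 cells (54.5%, 45.2% to 63.5%) had a UMI, then at 179 CPM in MOL2/MFOL, 147 CPM in MOL2a, 143 CPM in MOL2b, 102 CPM in MOL1, 61.4 CPM in MOL4-5/6, 34.7 CPM in MOL6b and 27.6 CPM in MOL6a. MOL2/4 stood clear of its neighbours on both sides, while MOL2/MFOL, MOL2a and MOL2b overlapped in turn. For all 8 MOL labels the interval of Enpp6 lay above that of MFOL1, and for none of the other 8 genes did that of any MOL label. The levels of TdTom+ and GFP+ were close in some labels, with 307 CPM in MOL2/4 of each, 181 and 173 CPM in MOL2/MFOL, 103 and 98.8 CPM in MOL1, and 27.8 and 27.2 CPM in MOL6a. They were further apart, but with overlapping intervals, in 2 others. These were MOL4-5/6, at 56.7 CPM (41.4 to 75.9) and 74.4 CPM (46.0 to 114), and MFOL2, at 60.7 CPM (29.1 to 112) and 125 CPM (50.4 to 258). After thinning, 77.8% of COP/NFOL, 50.9% of MOL2/4 and 2.70% of MFOL1 cells had a UMI.

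Tmem2, which the annotation calls Cemip2 (chr19:21778342-21858360, plus strand), rests on the fewest cells. Its 22 UMIs in COP/NFOL, or 159 CPM (99.4 to 240), came from 4 of 19 cells with 12, 5, 4 and 1 UMIs, and 1 cell held 54.5% of them. OPC had 3 UMIs in 83 cells, at 11.3 CPM (2.33 to 33.0), MFOL1 had 0, and the mature labels had 13. After thinning, 22.2% of COP/NFOL and 2.82% of OPC cells held it.

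The number of the 9 genes found in a cell was counted next, which the choice of genes by their COP/NFOL levels largely fixes there, so it is a description. All 19 COP/NFOL cells held 3 or more of the 9, with a minimum of 4, a median of 7 and a maximum of 8. Of the 2834 cells with other labels, 50 did (1.76%, 1.31% to 2.32%), and 38 of these were OPC (38 of 83, 45.8%, 34.8% to 57.1%). After thinning to 2400 UMIs it was 18 of 18 COP/NFOL cells, with a median of 5.5 genes, and 28 cells of the other labels, 24 of them among 71 OPC. When at least 2 UMIs of a gene were asked for, all 19 COP/NFOL cells and 6 others remained, 5 of them OPC. The most frequent pair in OPC was that of the genes found in most cells, Gpr17 (57 cells) and Neu4 (62 cells), with both in 43 of 83 cells, and no OPC held Enpp6 or Rassf10.

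**Figure D2:**
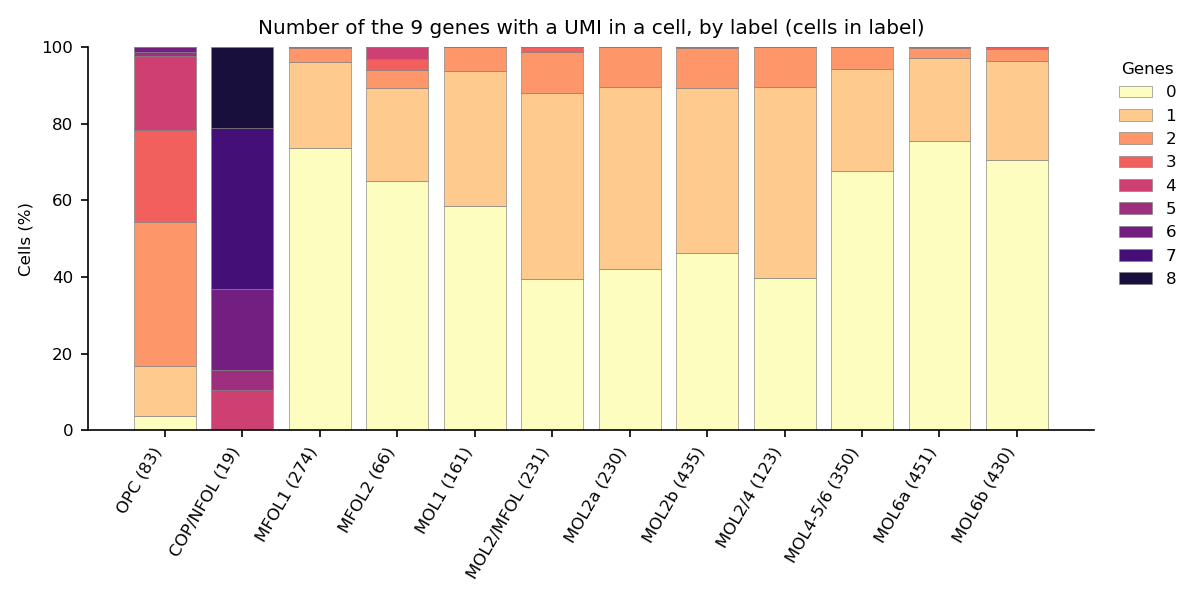
Share of cells (%) in each label by how many of the 9 genes had at least 1 UMI, with the number of cells in brackets. All 19 COP/NFOL cells lie at 4 to 8 genes, OPC mostly at 2 to 4, and the other labels mostly at 0 or 1.

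A few cells of other labels stood near COP/NFOL. In OPC, 1 TdTom+ cell held 6 of the genes, with 14 UMIs of Gpr17, 4 of Itpr2 and 3 each of Bmp4, Mycl and Neu4, and its precursor share of 1.13% was the lowest of all OPC. In MFOL2, 1 TdTom+ cell held 9 UMIs of Gpr17, 5 of Neu4, 2 of Tcf7l2 and 1 of Itpr2 at a myelin share of 7.29%. A cell labelled MFOL2 that held 84 of the 93 microglial UMIs of the data had 0 UMIs of the 9 genes, and without it Gpr17 in MFOL2 was at 87.8 CPM. When the cells were clustered anew, with or without the 9 genes among the variable ones, all 19 COP/NFOL cells fell in 1 cluster of 110 cells with all 83 OPC. The 19 cells therefore form no cluster of their own at that resolution, and they are called here by the deposited label. In the new clusters, 8 of the 9 were highest in that cluster, and Enpp6 was not, beside 53.9% of the 4159 genes with at least 50 CPM there.

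The 19 cells were then ordered by their share of myelin gene UMIs, from 0.975% to 9.10%, none of the 9 genes being in that panel. Gpr17, Bmp4, Neu4 and Mycl were highest at the low end, and Tcf7l2, Rassf10, Enpp6 and Tmem2 at the high end. Bmp4 had a UMI in each of the 9 cells of lowest share (3 to 19 UMIs, 1349 CPM, 1074 to 1672) and in 3 of the 9 of highest share (57.0 CPM, 15.5 to 146). Gpr17 was at 3640 CPM (3179 to 4149) and 884 CPM (678 to 1133) in the same cells, and Neu4 at 959 CPM (730 to 1237) and 242 CPM (141 to 388). Mycl was at 715 CPM (519 to 960) and 285 CPM (174 to 440). For these 4 genes the intervals of the low and high cells were apart. Of the low cells 3 of 9 were TdTom+, and of the high cells 8 of 9, so myelin share and library move together here. An alternative chosen after the data were seen left out, for each gene, the 1 low cell with its highest count. Without that cell, which held 11 of 44 UMIs, Mycl was at 615 CPM (423 to 864) in the low cells, which overlaps the high ones. The other 3 stayed apart.

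Tcf7l2 ran the other way, at 357 CPM (224 to 541) in the cells of low and 1768 CPM (1470 to 2108) in those of high myelin share. In the 4 cells of highest share it had 16, 21, 19 and 28 UMIs, against 0, 1, 0 and 7 in the 4 of lowest share. The intervals of Enpp6 were apart as well, at 634 CPM (451 to 866) and 1155 CPM (917 to 1435), but without the 1 cell that held 26 of the 81 UMIs the high cells were at 928 CPM (699 to 1207), which overlaps. Those of Rassf10, at 179 CPM (89.2 to 320) and 385 CPM (254 to 560), overlapped. Tmem2 had 0 UMIs in the low cells and 22 in the high ones. Itpr2 was at 650 CPM (464 to 885) and 542 CPM (383 to 744) and did not differ beyond counting error.

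**Figure D3:**
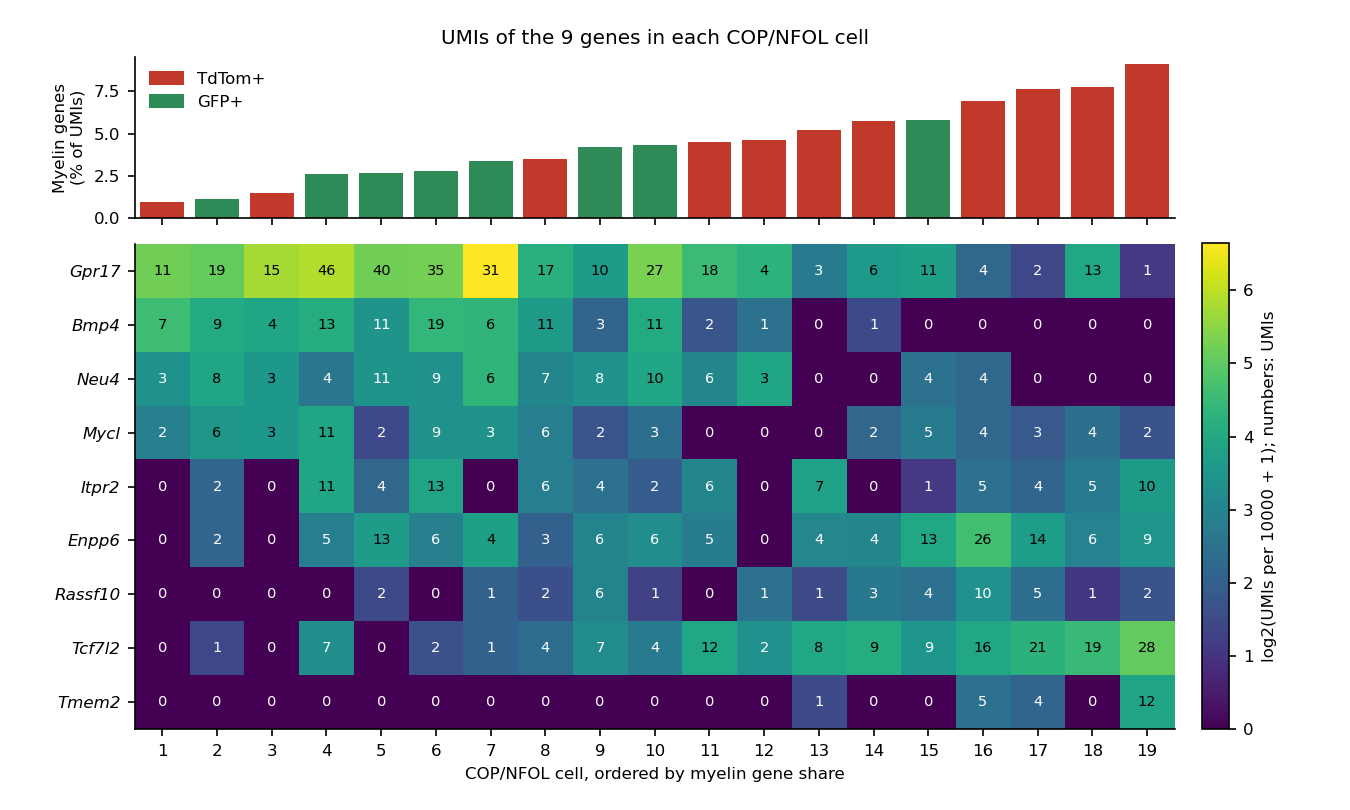
Top, share of UMIs (%) from 26 myelin genes in each of the 19 COP/NFOL cells, TdTom+ in red and GFP+ in green; bottom, log2 of UMIs per 10000 + 1 of each gene (colour) with its UMIs printed in the cell. Gpr17, Bmp4 and Neu4 fade to the right while Tcf7l2 grows, and the 4 cells of highest share are all TdTom+.

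As a description over the 19 cells, which share libraries and differ in depth, Spearman's rho with myelin share was -0.88 for Bmp4, -0.79 for Gpr17, -0.70 for Neu4 and -0.57 for Mycl. It was 0.93 for Tcf7l2, 0.61 for Rassf10 and Tmem2, 0.55 for Enpp6 and 0.14 for Itpr2. Within the 11 TdTom+ cells it was -0.92 for Bmp4, -0.86 for Gpr17 and 0.96 for Tcf7l2, and within the 8 GFP+ cells, which span less of the range, -0.36, -0.21 and 0.57. For Neu4 it was -0.78 within TdTom+ and -0.14 within GFP+. With precursor share in place of myelin share, rho within TdTom+ was 0.95 for Gpr17, 0.93 for Bmp4, 0.86 for Neu4 and -0.87 for Tcf7l2. Within GFP+ these had the opposite sign, at -0.43, -0.10, -0.36 and 0.21. With a cell's total UMIs in place of myelin share, rho was -0.38 for Bmp4, -0.41 for Gpr17 and 0.26 for Tcf7l2. For the same genes it was -0.59, -0.65 and 0.51 within TdTom+, and -0.29, -0.43 and -0.10 within GFP+. For Enpp6 it was 0.50 with total UMIs, but with myelin share it was 0.79 within TdTom+ and 0.74 within GFP+, against 0.73 and 0.17 with total UMIs. Counts after thinning, in 18 cells, gave -0.82 for Bmp4, -0.74 for Gpr17 and 0.75 for Tcf7l2. They gave smaller values for Neu4 (-0.45), Mycl (-0.33), Rassf10 (0.45) and Enpp6 (0.38).

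The libraries differed for some of the 9 genes. Over all cells, TdTom+ was lower for 4, with the whole interval of the log2 ratio (pseudocount 1 CPM, interval without one) below 0, and higher for 1, Tcf7l2. Among 11652 genes with a UMI, 5.18% were lower and 4.60% higher in this sense, and among the 2958 genes whose libraries averaged 50 CPM or more, which take in 3 of the 9, 6.83% and 9.70%. At a log2 ratio of 0.5 or more, 4 of the 9 were lower and 1, Tmem2, higher, beside 6.25% and 4.38% of the genes with a UMI, and of the 3 above 50 CPM 1 was lower and 0 higher, beside 0.304% and 0.135%. Gpr17 was at 35.8 CPM in TdTom+ and 81.5 CPM in GFP+, a log2 ratio of -1.17 (-1.44 to -0.94). Bmp4 was at 5.47 and 23.2 CPM, or -1.90 (-2.67 to -1.52). Mycl was at 5.33 and 13.1 CPM, or -1.16 (-1.95 to -0.65), and Neu4 at 20.5 and 37.7 CPM, or -0.85 (-1.23 to -0.53). Tcf7l2 was at 64.2 and 45.5 CPM, or 0.49 (0.24 to 0.77). The log2 ratios of Itpr2, -0.18 (-0.53 to 0.17), Enpp6, -0.16 (-0.35 to 0.02), Rassf10, -0.04 (-1.03 to 1.00), and Tmem2, 0.89 (-0.00 to 2.63), had intervals that reached 0.

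Leaving out the 19 COP/NFOL cells moved these values. Without them 0 of the 9 were lower in TdTom+, Gpr17 was at 0.13 (-0.27 to 0.56), Bmp4 at -0.54 (-2.03 to 0.54), Neu4 at -0.31 (-0.75 to 0.11) and Mycl at 0.00 (-1.53 to 1.70), while Tcf7l2 was at 0.35 (0.07 to 0.66). In the MOL labels alone Tcf7l2 was at 0.30 (-0.02 to 0.64), whose interval reached 0. Within COP/NFOL, Gpr17 was at 1222 CPM (988 to 1496) in TdTom+ and 3542 CPM (3089 to 4044) in GFP+, and Tcf7l2 at 1547 CPM (1282 to 1852) and 501 CPM (341 to 712). The log2 ratios there were -1.53 (-1.90 to -1.18) for Gpr17, -1.78 (-2.49 to -1.12) for Bmp4, -1.52 (-2.24 to -0.83) for Neu4, -0.97 (-1.74 to -0.23) for Mycl and 1.62 (1.05 to 2.25) for Tcf7l2. Tmem2 had 22 UMIs in TdTom+ and 0 in GFP+, at least 5.90-fold higher, of which 12 were in 1 cell. In OPC, where the labels hold 48 and 35 cells, all ratios with a value had intervals reaching 0, from -0.32 for Bmp4 to 1.57 for Tcf7l2 (17 and 4 UMIs).

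The genes lower in TdTom+ COP/NFOL cells were those highest at low myelin share, and the 2 libraries did not cover the same range of it. GFP+ cells lay at 1.13% to 5.79% (median 3.09%) and TdTom+ cells at 0.975% to 9.10% (median 5.24%), so library and stage within COP/NFOL cannot be told apart from these cells. In the range that both cover, chosen after the data were seen, 6 TdTom+ and 8 GFP+ cells remained. They were not matched for myelin share within it. The TdTom+ cells lay at 1.49%, 3.49%, 4.53%, 4.63%, 5.24% and 5.73%, beside the GFP+ median of 3.09%. The part of stage in the ratios was not tested. There the log2 ratios were -0.93 (-1.35 to -0.52) for Gpr17, -1.05 (-1.86 to -0.31) for Bmp4, -0.79 (-1.62 to -0.02) for Neu4 and 1.04 (0.31 to 1.79) for Tcf7l2, closer to 0 than over all 19 cells. Mycl, at -1.02 (-2.14 to -0.04), was not closer to 0, and Enpp6, which had been at 0.05, was at -0.91 (-1.81 to -0.09). Without the 1 cell of COP/NFOL with the highest count of a gene, Mycl was at -0.72 (-1.53 to 0.09), whose interval reached 0. Gpr17, Bmp4, Neu4 and Tcf7l2 kept their side of 0.

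**Figure D4:**
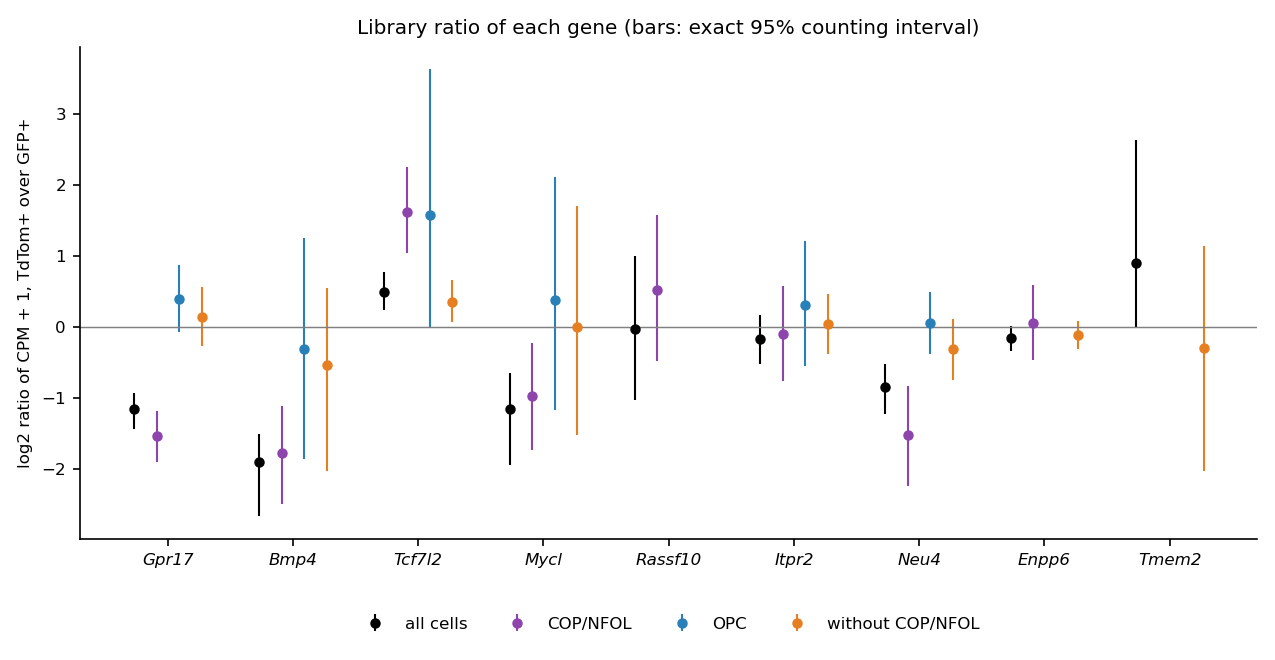
Log2 ratio of CPM + 1, TdTom+ over GFP+, of each gene over all cells, within COP/NFOL, within OPC and without COP/NFOL cells, with exact 95% counting intervals; ratios with 0 UMIs in a library, or at most 3 in both, are left out. Gpr17, Bmp4, Mycl and Neu4 lie below 0 over all cells and within COP/NFOL and reach 0 without these cells.

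The other genes of the pathways were counted from lists that do not hold the 9, as 2-fold or more higher or lower in COP/NFOL among genes with at least 50 CPM in either label. Over all genes tested, 641 of 5147 were higher and 1132 lower than in OPC, with a median log2 ratio of -0.13, and 1199 of 4318 were higher and 492 lower than in MFOL1, with a median of 0.46. Of 12 Wnt pathway genes tested against OPC, 2 were higher and 5 lower (median -0.41), and of 13 against MFOL1, 2 were higher and 4 lower (median -0.53). Tle4, a corepressor that binds TCF factors, was at 115 CPM in COP/NFOL and 45.2 CPM in OPC, while Bcl9, a coactivator of beta-catenin, was at 7.21 against 86.6 CPM. Nkd1, an inhibitor of the pathway, was at 7.21 CPM against 146 CPM in MFOL1, and Daam2 at 7.21 against 112 CPM. Of 10 BMP pathway genes, 1 was higher than in OPC and 3 lower (median -0.34). That 1 was Smad7, an inhibitor of BMP and TGF-beta signals, at 281 CPM against 33.9 CPM, while Id2, a classical BMP target, was at 21.6 against 211 CPM and Bmp7 at 0 UMIs against 86.6 CPM. Against MFOL1, 0 of 6 BMP genes were higher and 0 lower (median -0.01).

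The choline phospholipid list, chosen for Enpp6, had 4 of 18 tested genes higher than in OPC and 2 lower (median 0.60), and 6 of 17 higher than in MFOL1 and 2 lower (median 0.68). Slc44a1, a choline transporter, was at 1939 CPM in COP/NFOL, 147 CPM in OPC and 427 CPM in MFOL1. Pcyt2, of phosphatidylethanolamine synthesis, was at 332 CPM against 18.8 CPM in OPC, and Gpcpd1, a glycerophosphocholine phosphodiesterase, at 259 CPM against 94.2 CPM in OPC and 5.57 CPM in MFOL1. The 2 lower than in OPC were Chpt1, at 93.7 against 313 CPM, and Chkb, at 21.6 against 67.8 CPM. Pla2g16 was at 21.6 CPM against 285 CPM in MFOL1. Among genes of calcium release, chosen for Itpr2, 1 of 14 was higher than in OPC, and 5 of 13 were higher than in MFOL1 (median 0.28), of which Plcb1, a phospholipase that makes inositol trisphosphate, was at 123 CPM against 2.39 CPM. Of the sialic acid and ganglioside genes, beside Neu4, 0 of 8 were higher and 4 lower than in OPC (median -0.45), and 3 of 6 higher and 2 lower than in MFOL1 (median 0.81). The hyaluronan and lectican genes, beside Tmem2, had 0 of 6 higher and 3 lower than in OPC (median -1.33), but 4 of 5 higher than in MFOL1 (median 5.58). Tnr was at 1557 CPM in COP/NFOL, 893 CPM in OPC and 3.98 CPM in MFOL1, and Bcan at 959, 795 and 1.59 CPM. Other genes of the list went the other way against OPC, with Ncan at 7.21 against 350 CPM and Hapln1 at 0 UMIs against 97.9 CPM. Of the RASSF and MYC network, 0 of 10 were higher and 2 lower than in OPC (median -0.06).

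Lists of stage genes were counted in the same way. The lists were chosen with earlier results of these data known, and the labels could use their genes, so the counts are a description. Of 26 precursor genes tested against OPC, 23 were 2-fold or more lower and 0 higher (median -2.94), yet of 16 tested against MFOL1, 15 were higher (median 3.21). Of 32 genes of newly formed oligodendrocytes, 26 were higher than in OPC (median 3.13), and 23 of 31 were higher than in MFOL1 (median 3.40). Of 26 myelin genes tested against MFOL1, 17 were lower and 1 higher (median -2.37). Of 16 cell cycle genes tested against OPC, 13 were lower and 1 higher (median -2.65), and Ccnd1, a cyclin of the start of the cycle, was at 7.21 CPM against 1010 CPM. Among 34 transcription factors of the lineage, 7 were higher than in OPC and 12 lower (median -0.45). Myrf, which drives myelin genes, was at 396 CPM against 52.7 CPM, and Hes5, a precursor factor, was at 7.21 CPM against 426 CPM. Sox4 was at 1398 CPM against 11.9 CPM in MFOL1. Among other G protein-coupled receptors, 2 of 13 were higher than in OPC and 6 lower, and Ednrb, the endothelin receptor, had 0 UMIs against 527 CPM. Against MFOL1, 3 of 11 were higher and 7 lower (median -1.41), with Gpr37l1 at 548 against 2.39 CPM and Lpar1, a lysophosphatidic acid receptor, at 108 against 608 CPM.

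**Figure D5:**
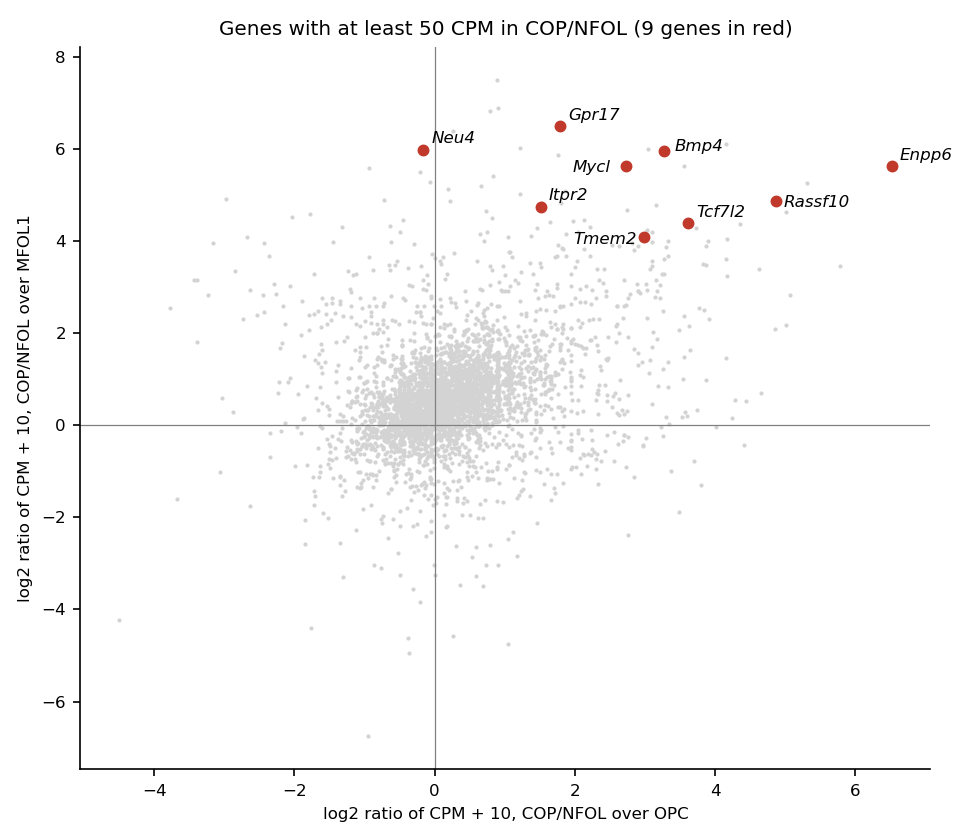
Log2 ratio of CPM + 10 of COP/NFOL over OPC (x axis) and over MFOL1 (y axis) for the genes with at least 50 CPM in COP/NFOL (grey), with the 9 genes in red. The 9 lie above 4 on the y axis, Neu4 alone lies left of 0 on the x axis, and Enpp6 lies farthest right of the 9.

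The genes with the most similar pattern were sought among 3201 genes with at least 100 CPM and 10 UMIs in a label, by Pearson's r of log2(CPM + 10) over the 12 labels with the mean standardized profile of the 9. These 12 values come from the same 2 libraries and rest largely on COP/NFOL, so r is a description. The 10 highest were Bgn (0.992), Dpysl4 (0.989), Mex3b (0.987), Fyn (0.987), Panx1 (0.986), Tmem108 (0.985), Ptpro (0.982), Ptprj (0.980), Fkbp9 (0.979) and Cyfip2 (0.976). Of these Bgn, a small proteoglycan of the matrix, had 24 of its 30 UMIs in COP/NFOL, Panx1, a channel protein, 27 of 34, and Tmem108 was at 1319 CPM against 139 CPM in OPC. For single genes the nearest were 1810041L15Rik for Gpr17 (0.995), Dpysl4 for Bmp4 (0.998), Bgn for Tcf7l2 (0.983) and for Tmem2 (0.993), and Csgalnact1, an enzyme of chondroitin sulfate synthesis, for Mycl (0.998). For Rassf10 it was Gp1bb (0.999, 19 of its 20 UMIs in COP/NFOL), for Itpr2 Gm38039 (0.989) and for Neu4 5730559C18Rik (0.998). The nearest gene to Enpp6, Efcab14, reached 0.930, the lowest of the 9 values, and was at 793 CPM in COP/NFOL, 136 CPM in OPC and 292 CPM in MFOL1.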

How the data were processed

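The data are single-cell RNA sequencing libraries (10x Genomics 3′ version 2) of sorted TdTom+ and GFP+ OL lineage cells of the corpus callosum. The methods name the STAR aligner (its version is not given in the sources used here) and the submitters' processing notes Cell Ranger 2.1.1 and mm10. The methods ask for 200 to 3000 genes in each cell, and for less than 5% of mitochondrial UMIs. Per the file headers, each value deposited by the authors is a signal, a gene's share of all UMIs in 1 cell. Taking the smallest value above 0 in a cell as 1 UMI gave whole UMIs for 100% of values (tolerance 0.01), and all sums start from these. The deposited total UMI count per cell was read as a check, with the library and the authors' label of each cell; the other 37 columns of the table of cells were not used. The 2 libraries share 1 cell barcode of 2853. No doublet caller was run.

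UMIs were summed per label and library and scaled to CPM. There is 1 library per origin, so no test was made. Intervals at 95% were exact Poisson (sums), Clopper-Pearson (shares) and conditional on both sums (ratios, with no pseudocount). A share of 0, or a fold against 0 UMIs, takes 3 counts as its limit. Such a fold leaves out the counting error of the side that has UMIs. Genes were called 4-fold over all other cells at 50 CPM or more, 2-fold against a label with a pseudocount of 10 CPM, and between libraries with 1 CPM. Named genes were the 9, the 10 genes most alike to their mean and the 1 most alike to each, and from each list at most the 4 highest and 2 lowest. Cells were thinned to 2400 UMIs with a random seed of 1. The members and lists were chosen with earlier results of these data known. The interval calculation and the thinning were tested on simulated data.

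Alternatives were each library alone, the mean of each cell's CPM, the stated limits recounted, own Leiden clusters (scanpy 1.11.5 with igraph 0.11.9), TMM factors (edgeR 4.0.16 in R 4.3.3), standardized composition and subsets of labels. Gene positions and sequences are those of GENCODE and RefSeq for GRCm38, which is mm10. Other steps ran in Python 3.11.15 (scipy 1.17.1 for intervals, pandas 2.3.3 and numpy 2.4.6 for sums, matplotlib 3.10.9 for plots).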

Additional observations from a re-analysis of the deposited data

Results flagged for a closer look

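Neu4, the sialidase, had COP/NFOL over OPC ratios of opposite sign in the 2 libraries, which is why it is listed here; the difference was not tested, since there is 1 library per origin. In TdTom+ it went from 703 CPM (577 to 848) in 48 OPC to 338 CPM (221 to 495) in 11 COP/NFOL cells, a log2 ratio of -1.03 (-1.73 to -0.43) with a pseudocount of 10 CPM. In GFP+ it went from 679 CPM (534 to 851) in 35 OPC to 970 CPM (741 to 1249) in 8 COP/NFOL cells, a log2 ratio of 0.51 (0.0002 to 1.02). The interval of this ratio lies only just above 0, and the CPM intervals overlap. Beside the difference, the COP/NFOL cells of TdTom+ had a median myelin share of 5.24% and those of GFP+ of 3.09%. Of the 7 COP/NFOL cells of highest myelin share, 5 had 0 UMIs of Neu4, and all 5 were TdTom+. The 1 GFP+ cell among the 7 had 4 UMIs, so library and myelin share cannot be told apart here. The part of stage in the difference was not tested.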

How the results depend on the processing

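No paired analysis was possible because each origin was sequenced as a single library. The count of 9 genes at 4-fold or more was 5 when COP/NFOL was set against the next highest label, and was 8 in GFP+ alone, which has 0 UMIs of Tmem2 there. The count of cells of other labels with 3 or more of the genes went from 50 to 28 after thinning and to 6 with at least 2 UMIs of a gene. Thinning also leaves out cells below 2400 UMIs, and how much of the change that made was not tested. The count of genes lower in TdTom+ went from 4 to 0 without COP/NFOL cells and to 0 in MOL labels only, and was 4 within the stated limits. At standardized composition, with TMM factors and by averaging the CPM of single cells it was 4 with the width of the interval over all cells carried over, since these give no interval of their own. The number highest in COP/NFOL was 8 or 9 in the 5 alternatives that keep this label. The other 2 alternatives count the new cluster of 110 cells, mostly OPC, that holds the 19 cells, where 8 were highest and the exception was Enpp6. The genes differ between these counts, since Neu4 was the exception with both libraries and Tmem2 in GFP+ alone. Of 49 log2 ratios under 6 alternatives, 34 stayed within their counting interval, 13 left it and 2 changed sign after being called: Gpr17, at 0.13 without COP/NFOL cells and 0.25 in MOL labels only. At standardized composition, where both libraries take the mean of their label shares, Gpr17 was at -0.71, Bmp4 at -1.46 and Neu4 at -0.36. Ratios with 0 UMIs in a library, or at most 3 in both, were not computed, which left out Mycl, Rassf10, Neu4 and Bmp4 in MOL labels only and Rassf10 without COP/NFOL cells. The stated limits leave 10 of 19 COP/NFOL cells. The 19 cells limit all values of this label.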
